A study of Sus scrofa with 8 samples.

Results

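The growth hormone and insulin-like growth factor (IGF) axis comprises here the hormone receptor GHR, the ligand IGF1, its receptor IGF1R and the binding proteins IGFBP1 to IGFBP6, 9 genes in all. A probe was taken for a gene if its accession belonged to that gene in the pig RefSeq gene table or if the study's own list of differing probes named it so. This gave 1 probe for each of 7 genes, all 7 named through RefSeq, among 2228 genes with a named probe on the array. IGFBP1 and IGFBP4 had no probe by this rule and were not analysed here.

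Growth hormone from the pituitary binds GHR, which signals through the kinase JAK2 and drives the synthesis of IGF1, mostly in the liver but also locally in many organs. IGF1 and IGF2 act through the tyrosine kinase receptor IGF1R, and the binding proteins hold the ligands in the blood and in tissue, where they restrain or prolong their action. In the testis the axis is known for its part in the growth and hormone production of Leydig cells and in the support of germ cells by Sertoli cells.

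The RNA came from samples of testis tissue of 8 Large White boars. They were founders of a pedigree made to ask whether a diet rich in methyl donors leaves traces that later generations inherit. From month 1 to month 10 of age, 4 boars (m_9597, m_9599, m_9499 and m_9527) received feed supplemented with methionine, choline, betaine, folate and vitamins B6 and B12, and 4 boars (m_9598, m_9600, m_9502 and m_9528) received the control feed. Each boar had 1 Agilent one-colour array. The boars m_9597 to m_9600 are a litter of 4 full brothers and shared slide 1, while the other 4 boars, from 2 further litters, shared slide 2, so that slide and this litter cannot be told apart, and either slide carried 2 boars of each diet. By the paper, the allotment to the diets was random within each litter. Which boar of slide 2 came from which litter is not given in the sources used here. Neither limma nor the permutation test took account of litters.

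The median spot intensity of the arrays was between 108 and 192.5, which was 4.91 to 7.40 times the median local background, and 76.3% to 86.5% of the spots were well above background. Of 43603 probes, 36982 (84.8%) were present, which means a signal above 25 and well above background on 2 or more of the 4 arrays of either diet. All 7 probes of the axis were well above background on all 8 arrays, and none of their 56 spots was marked as an outlier or saturated. Levels are given as log2 of the quantile-normalized spot intensity without background subtraction, and a difference is the supplemented minus the control diet on that scale, with its standard error (SE). P-values are from limma over separate boars, adjusted by Benjamini-Hochberg over all present probes. How precise these values are is limited by the number of arrays.

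By limma's adjusted P-value, none of the 7 genes was under 0.05, against 0% of all present probes, and the smallest adjusted P-value on the array was 0.476. At an unadjusted P-value under 0.05 the count was also 0 of 7, where 1.86% of all present probes passed, 0.938% higher and 0.925% lower with the supplement. In 0 of 7 genes were the boars of the diets fully separated, compared with 1.13% of all present probes. These counts of 0 are near what shares so small leave among 7 genes. The mean was higher on the supplemented diet for 6 genes and lower for IGF1R, although IGFBP3 turned lower with background-subtracted signals (-0.03 on the log2 scale).

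The differences were of the size seen over the array. The median size of the log2 difference was 0.15 for the 7 genes and 0.17 for all present probes, and the signed median was 0.15 against -0.003. The median residual SD was 0.45 for the axis and 0.30 for all present probes, a contrast that was not tested. The 8 boars lay within 1.30-fold for IGF1R and 1.34-fold for IGF1, and the widest spreads were those of GHR with 3.37-fold and IGFBP6 with 4.12-fold.

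**Figure D1:**
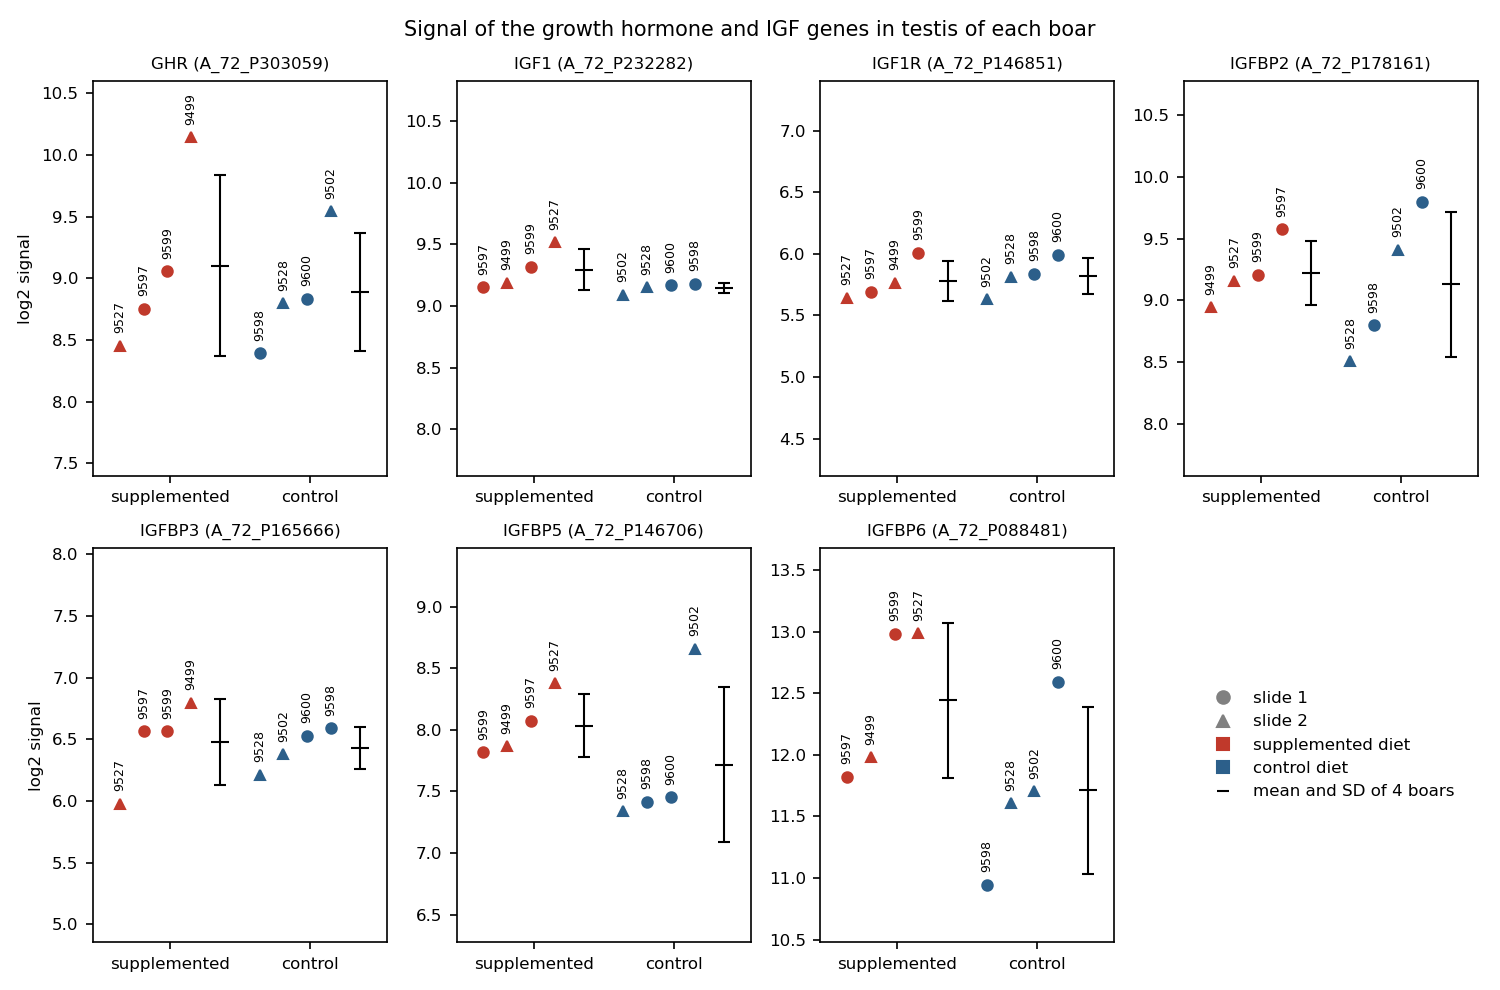
Log2 signal (vertical axis, the same span in every panel) of the 7 genes in each boar, labelled with the boar's number, by diet on the horizontal axis. Points are boars, circles for slide 1 and triangles for slide 2, and bars are the mean and SD of 4 boars. The diets overlap in every panel, the boars lie within 1.30-fold for IGF1R and 4.12-fold for IGFBP6, and m_9502 stands apart from the other control boars for IGFBP5.

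GHR, the receptor of growth hormone, had a log2 signal of 8.75 in m_9597, 9.06 in m_9599, 10.14 in m_9499 and 8.46 in m_9527 on the supplemented diet. On the control diet it was 8.39 in m_9598, 8.83 in m_9600, 9.54 in m_9502 and 8.80 in m_9528. The highest boar of each diet, m_9499 and m_9502, was on slide 2, and the diets overlapped over most of their range. The means were 9.10 ± 0.74 (SD, n = 4) and 8.89 ± 0.48 (SD, n = 4). The difference of 0.21 (SE 0.37, 95% interval -0.62 to 1.04) did not pass limma (adjusted P = 0.888). Without m_9499 the difference was -0.14, without m_9598 it was 0.04, and without m_9502 or m_9527 it was 0.43.

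The boar with the highest GHR signal, m_9499, also had the highest median of the Leydig cell markers. All 6 genes of that marker list had probes, 11 in all, every one well above background on all arrays. The median deviation of these probes from their own means over the 8 boars was 1.12 in m_9499, and otherwise -0.20 in m_9597, -0.32 in m_9599, -0.92 in m_9527, 0.37 in m_9598, 0.08 in m_9600, -0.16 in m_9502 and 0.41 in m_9528. STAR, which brings cholesterol into the mitochondria for steroid synthesis, had a log2 signal of 13.69 in m_9499 and 10.15 to 12.18 in the other boars. This did not hold for every marker, as INSL3 and both probes of HSD3B1 were highest in m_9528, and the HSD3B1 signals of m_9499 were 7.41 and 5.55 against 8.03 and 5.95 in m_9528. The order of the other boars was not shared: m_9598 had the lowest GHR signal and the third highest marker level.

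The summed intensity of the Leydig cell list was 448625 in m_9597, 447963 in m_9599, 545856 in m_9499 and 396188 in m_9527, and on the control diet 430136 in m_9598, 478789 in m_9600, 456505 in m_9502 and 494286 in m_9528. Its brightest probe was that of INSL3, a peptide hormone of these cells, with a log2 signal of 18.50 to 18.74. No other probe of the list was above 16.35 in any boar, so that the sum was mostly the INSL3 signal. Probes also do not share a scale. The part of the Leydig cells in the GHR signal was not tested. In RNA of testis tissue, fewer cells of a type and less RNA per cell cannot be told apart.

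IGF1, the ligand, had a log2 signal of 9.15 in m_9597, 9.32 in m_9599, 9.19 in m_9499 and 9.52 in m_9527 on the supplemented diet. On the control diet it was 9.18 in m_9598, 9.17 in m_9600, 9.09 in m_9502 and 9.15 in m_9528. The control boars lay closely together, and m_9599, m_9499 and m_9527 lay above all of them, while m_9597 lay among them. The means were 9.29 ± 0.17 (SD, n = 4) and 9.15 ± 0.04 (SD, n = 4). The difference of 0.15 (SE 0.14, 95% interval -0.16 to 0.45) did not pass limma (adjusted P = 0.840), although only 4.54% of all present probes had a smaller residual SD. The exact two-sided permutation test over the boars gave P = 0.114, the lowest of the 7 genes by that test. The 95% interval runs from 0.90-fold to 1.37-fold. Without m_9527 the difference was 0.07, and on slide 1 alone 0.06.

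IGF1R, the tyrosine kinase through which IGF1 signals, gave a dim signal of 1.45 to 2.77 times the local background. Its log2 signal was 5.69 in m_9597, 6.01 in m_9599, 5.76 in m_9499 and 5.64 in m_9527 on the supplemented diet. In the control boars it was 5.84 in m_9598, 5.99 in m_9600, 5.63 in m_9502 and 5.81 in m_9528. The diets covered nearly the same range, and the highest boar of each, m_9599 and m_9600, were brothers. The difference was -0.04 (SE 0.15, 95% interval -0.37 to 0.29; limma adjusted P = 0.947), and its sign changed without m_9600 (0.02) or m_9527 (0.003). Without background subtraction the change of so dim a probe is understated. With the background-subtracted signal the difference was -0.10.

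IGFBP2, a binding protein of the circulation and of many tissues, had a log2 signal of 9.58 in m_9597, 9.21 in m_9599, 8.94 in m_9499 and 9.16 in m_9527 on the supplemented diet. Control values were 8.80 in m_9598, 9.80 in m_9600, 9.41 in m_9502 and 8.51 in m_9528. The highest boar and both lowest boars were on the control diet, and the supplemented boars lay between them. The difference was 0.09 (SE 0.28, 95% interval -0.54 to 0.72; limma adjusted P = 0.936), and its sign changed without m_9597 (-0.03), m_9598 (-0.02) or m_9528 (-0.11).

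IGFBP3, the main carrier of IGF1 in blood, was also dim, at 2.22 to 6.10 times the local background. Its log2 signal was 6.56 in m_9597, 6.57 in m_9599, 6.80 in m_9499 and 5.98 in m_9527 on the supplemented diet. Control values were 6.59 in m_9598, 6.53 in m_9600, 6.38 in m_9502 and 6.21 in m_9528. Both the highest and the lowest boar were on the supplemented diet, and both were on slide 2. The difference was 0.05 (SE 0.19, 95% interval -0.39 to 0.49; limma adjusted P = 0.954), and its sign changed without m_9499 (-0.06) or m_9528 (-0.02).

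IGFBP5, which binds to the extracellular matrix, had a log2 signal of 8.07 in m_9597, 7.82 in m_9599, 7.86 in m_9499 and 8.38 in m_9527 on the supplemented diet. In the control group it was 7.42 in m_9598, 7.45 in m_9600, 8.66 in m_9502 and 7.34 in m_9528. Of the control boars, 3 lay below all supplemented boars and m_9502 lay above all of them. The means were 8.03 ± 0.25 (SD, n = 4) and 7.72 ± 0.63 (SD, n = 4), a difference of 0.32 (SE 0.29, 95% interval -0.34 to 0.98; limma adjusted P = 0.840). Without m_9502 the difference was 0.63, with an unadjusted P-value of 0.00559 and an adjusted P-value of 0.279 in limma, a setting in which the present probes with an unadjusted P-value under 0.05 rose from 689 to 6155. The difference was smaller without m_9528 (0.19) or m_9527 (0.20). Among the brothers on slide 1 the difference was 0.51, and on slide 2, which held m_9502, it was 0.12.

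IGFBP2 and IGFBP5 are direct neighbours in the pig RefSeq gene table, with 0 genes between them. The control boars m_9528 and m_9598 were the lowest for both genes, while m_9600 was highest for IGFBP2 and among the 3 lowest for IGFBP5. IGFBP3 is in the same way the neighbour of IGFBP1.

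IGFBP6, which binds IGF2 in preference to IGF1, had the largest difference of the 7 genes. Its log2 signal was 11.82 in m_9597, 12.98 in m_9599, 11.98 in m_9499 and 12.99 in m_9527 on the supplemented diet. On the control diet it was 10.95 in m_9598, 12.59 in m_9600, 11.71 in m_9502 and 11.61 in m_9528. All supplemented boars lay above 3 of the control boars, and the control boar m_9600 lay above m_9597 and m_9499. The means were 12.44 ± 0.63 (SD, n = 4) and 11.71 ± 0.68 (SD, n = 4).

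The IGFBP6 difference of 0.73 (SE 0.39), or 1.66-fold, did not pass limma (unadjusted P = 0.0893, adjusted P = 0.840), and the exact two-sided permutation test over the boars gave P = 0.143. With the slide as a block, limma's unadjusted P-value was 0.113 and its adjusted P-value 0.797. The 95% interval ran from 0.91-fold to 3.02-fold. The difference was 0.63 among the brothers on slide 1 and 0.83 on slide 2. It ranged from 0.47 without m_9598 to 1.02 without m_9600.

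The peritubular and smooth muscle markers, singled out after the values were seen, followed in part the order of boars of IGFBP6. This was not particular to them, as the macrophage median was also highest in m_9600 (0.67) and m_9527 (0.46). It was -0.04 in m_9599 and lowest in m_9502 (-0.45). Of the 5 peritubular and smooth muscle genes, DES and CNN1 had probes, 4 in all, and ACTA2, MYH11 and TAGLN were not analysed here. The median deviation of the 4 probes was 0.53 in m_9527, 0.39 in m_9600, 0.17 in m_9599, 0.08 in m_9597, 0.07 in m_9502, -0.16 in m_9499, -0.45 in m_9528 and -0.46 in m_9598. By this median the 3 highest and the 2 lowest boars were those of IGFBP6. By single probes the order differed: the DES probes A_72_P177466 and A_72_P209552 put m_9502 second (14.18 and 14.01), and the DES probe A_72_P350098, well above background on 2 arrays of the supplemented and 3 of the control diet, was lowest in m_9527 (5.08).

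The summed intensity of these markers was 44316 in m_9527, 34440 in m_9600, 33506 in m_9599, 31641 in m_9597, 37198 in m_9502, 25568 in m_9499, 18004 in m_9528 and 19186 in m_9598. The brightest probe was one of DES, the intermediate filament of muscle cells. Of the 4 probes 3 were higher on the supplemented diet, and none had an unadjusted P-value under 0.05 in limma. The part of these cells in the IGFBP6 signal was not tested.

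**Figure D2:**
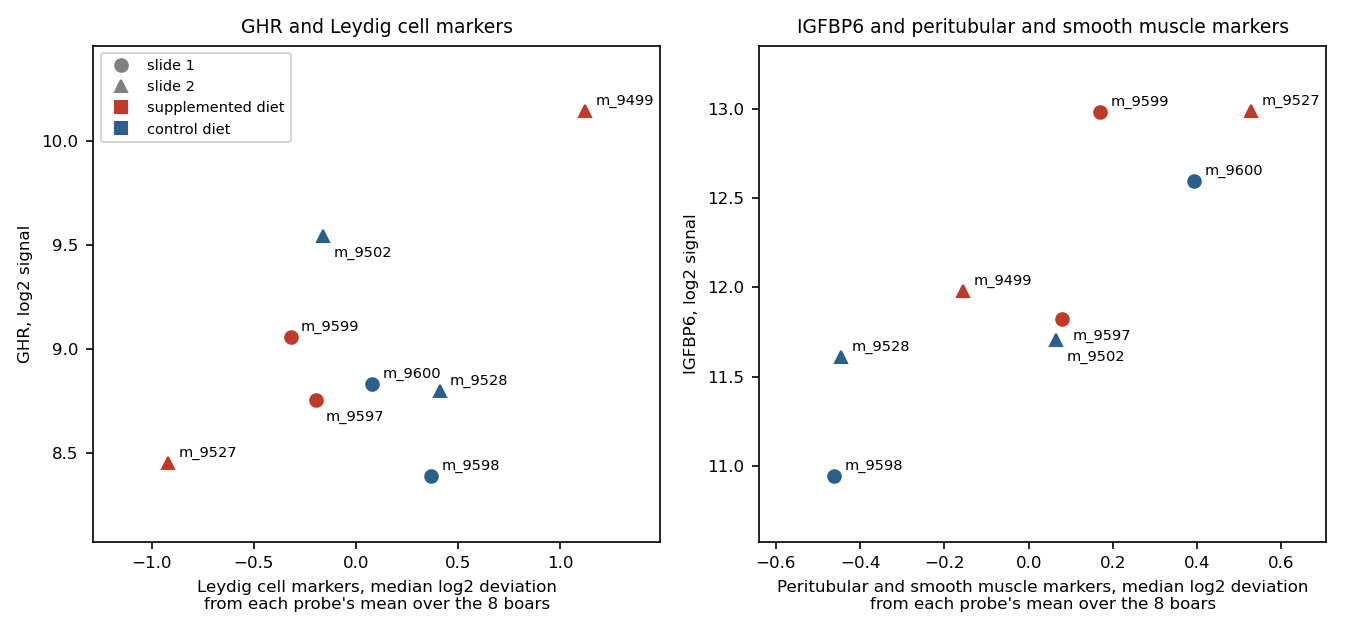
Log2 signal of GHR (left) and IGFBP6 (right) on the vertical axes against the median log2 deviation of the Leydig cell and of the peritubular and smooth muscle markers. Points are boars, red for the supplemented and blue for the control diet, circles for slide 1 and triangles for slide 2. The boar m_9499 is highest on both axes on the left, at 1.12 and 10.14, and m_9527, m_9600 and m_9599 are highest on both axes on the right.

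Within each slide all 7 genes differed in the same direction as on the other, which was so for 61.1% of all present probes, and for IGFBP3 the difference on slide 1 was as small as 0.005. The interaction of diet and slide gave an unadjusted P-value under 0.05 for 0 of 7 genes in limma, and the smallest adjusted P-value was 0.999957. All supplemented boars lay at places 1 and 3 of their slide and all control boars at places 2 and 4, and diet and place cannot be told apart for that reason.

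**Figure D3:**
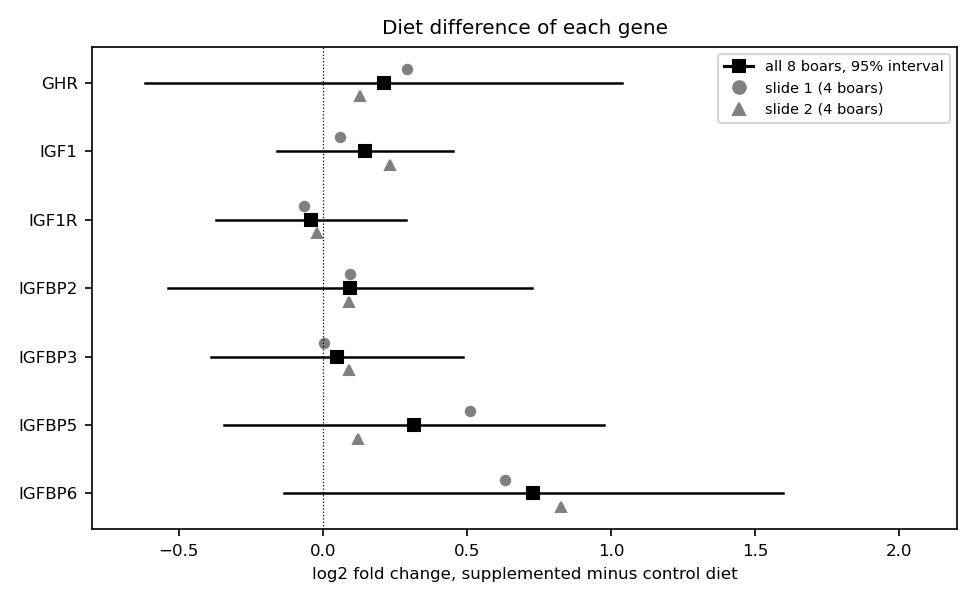
Log2 fold change (horizontal axis) of the 7 genes (vertical axis), supplemented minus control diet. Squares with lines are the limma value and its 95% interval over 8 boars, and circles and triangles are the differences of the means on slide 1 and slide 2. Every interval includes 0, and the widest reaches from -0.14 to 1.59 for IGFBP6.

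The intervals state which differences remain possible with 4 boars per diet. Over the 7 genes, the furthest that a 95% interval reached was 3.02-fold higher on the supplemented diet, for IGFBP6, and 1.53-fold higher on the control diet, for GHR.

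The other genes of the pathway were taken from 6 lists with 76 genes. A probe was found for 33 of them, and 45 probes of 29 genes were present. In limma 5 of the 45 probes had an unadjusted P-value under 0.05, of which 2 were higher with the supplement and 3 lower, where the shares of all present probes were 1.86%, 0.938% and 0.925%, and 0 passed adjustment. Of these 45 probes, 8 owed their name only to the study's list of probes that differed between the diets on these same arrays, so that they had been selected for a difference. Among the 37 probes named through RefSeq, 1 was higher and 0 were lower at that level, a count near the share of all present probes. The median difference of the 45 probes was -0.05.

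Of the hormones and ligands, IGF2 had 5 present probes and the stomach hormone GHRL had 1, while the probes of GH1, INS and SST were not well above background on enough arrays to be present. None of the 6 probes had an unadjusted P-value under 0.05 in limma. The largest positive difference was that of the IGF2 probe A_72_P303139 (0.59, SE 0.62, adjusted P = 0.842), and the 4 other IGF2 probes differed by 0.002 to 0.08. That probe varied widely over the boars, from 9.28 in m_9598 to 12.02 in m_9502, both on the control diet. Its difference was 1.70 on slide 1 alone and -0.52 on slide 2 alone, and ranged from 0.25 without m_9598 to 1.17 without m_9502. In limma its unadjusted P-value was 0.00231 on slide 1 alone and 0.00637 with array weights (difference 1.44). Those settings gave 2381 and 5830 present probes under 0.05, and adjusted P-values of 0.535 and 0.279 for this probe. With a boar left out its lowest unadjusted P-value in limma was 0.0347. GHRL had the only negative value (-0.05, SE 0.44, adjusted P = 0.982), with -0.82 on slide 1 alone and 0.72 on slide 2 alone, while with normexp 3 of the 6 probes were negative. On slide 1 alone GHRL had an unadjusted P-value of 0.00759 and an adjusted P-value of 0.689 in limma.

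Of the receptors, 5 probes of 5 genes were present. The prolactin receptor PRLR, a close relative of GHR, had a mean log2 signal of 6.40 ± 0.39 (SD, n = 4) with the supplement and of 5.70 ± 0.32 (SD, n = 4) without it. It was well above background on 4 and on 3 of the 4 arrays. The supplemented boar m_9527 (5.98) lay below the control boar m_9528 (6.01), and otherwise the supplemented boars were higher. The difference of 0.70 (SE 0.23) had an unadjusted P-value of 0.0140 and an adjusted P-value of 0.840 in limma. This probe was named only by the study's list. With the background subtracted the PRLR difference was 1.28, and with normexp it was 0.47. SSTR2, a receptor of somatostatin, had the only negative value (-0.06, or -0.75 with the background subtracted), and was well above background on 0 arrays of the supplemented and 2 of the control diet.

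Of the carriers of IGF and the proteases that cleave binding proteins, 7 probes of 6 genes were present, and STC2 was not. The probe A_72_P278074 of STC1, an inhibitor of such proteases, was lower on the supplemented diet by limma's unadjusted P-value alone (-0.79, SE 0.28, unadjusted P = 0.0190, adjusted P = 0.840). It was named only by the study's list, and the STC1 probe A_72_P077311, named through RefSeq, differed in the other direction (0.28, SE 0.21, adjusted P = 0.840). The first differed by -0.18 on slide 1 alone and by -1.39 on slide 2 alone, and without m_9499 its unadjusted P-value in limma was 0.0567. The largest positive difference was that of the matrix protease MMP2 (0.57, SE 0.26, adjusted P = 0.840).

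Of the genes of growth hormone signalling, 15 probes of 7 genes were present, all named through RefSeq, 8 of them higher and 7 lower, or 7 higher and 8 lower with the background subtracted. PTPN1, a phosphatase that acts on JAK2 and on the insulin receptor, had 4 probes. The probe A_72_P192882 differed by 0.38 (SE 0.16, unadjusted P = 0.0428, adjusted P = 0.840 in limma), and the other PTPN1 probes by -0.06, 0.42 and 0.27. Without m_9499 the first had an unadjusted P-value of 0.125 in limma, and it was also above 0.05 without each of m_9598, m_9600, m_9527 and m_9528. JAK2 itself had the largest negative difference (-0.36, SE 0.24, adjusted P = 0.840).

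Of the genes of IGF signalling inside the cell, 12 probes of 9 genes were present, 6 of them named only by the study's list, and 10 were lower on the supplemented diet. Among these 10, the MAP2K1 probe (-0.09) was well above background on 1 array of the supplemented and 3 of the control diet. It was thus present only through the control diet, and the filter favoured its direction. GRB14, an adaptor that restrains the insulin receptor, had the largest negative difference. Its probe A_72_P143581 had a log2 signal of 7.02 in m_9597, 6.83 in m_9599, 6.85 in m_9499 and 6.79 in m_9527, and on the control diet 7.75 in m_9598, 7.99 in m_9600, 7.14 in m_9502 and 7.43 in m_9528. All control boars lay above all supplemented boars.

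The GRB14 difference was -0.71 (SE 0.19, unadjusted P = 0.00480, adjusted P = 0.840 in limma). The second GRB14 probe, A_72_P257492, differed by -0.44 (SE 0.15, unadjusted P = 0.0131, adjusted P = 0.840) with the same separation. Both were selected by the study's list on these arrays, so that their difference is no independent evidence.

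Full separation was seen for 4 of the 12 IGF signalling probes, not all in one direction, against 1.13% of all present probes. These 4 were all named only by the study's list, so that they had been selected for a difference. Besides GRB14, the probe of the adaptor IRS2 (-0.24, limma adjusted P = 0.840) separated the diets fully. Its difference was -0.60 with the background subtracted (unadjusted P = 0.0223 in limma) and -0.12 with normexp, and array weights gave an unadjusted P-value of 0.0443. Unadjusted P-values under 0.05 were found for 1019 present probes with the background subtracted and 5830 with array weights, against 689 with neither. The IRS2 probe was chosen here after its values were seen and was likewise named only by the study's list. It was well above background on 2 arrays of the supplemented and 4 of the control diet. None of the 3 genes of the list of proteins that bind IGF messenger RNA had a probe.

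Markers of the main cell types of the testis were present in all samples. The 4 probes of germ cells, with PRM1 the brightest, the 10 of Sertoli cells, with CLU the brightest, and the 11 of Leydig cells were all well above background on all 8 arrays. In no marker list did a probe have an unadjusted P-value under 0.05 in limma. All 11 Leydig cell probes were lower on the supplemented diet (median -0.35), 10 of 11 when the arrays were scaled to their 75th percentile instead. Without m_9527 only 7 of 11 were lower (median -0.06), without m_9599 it was 9 of 11 (median -0.18), and without m_9499 the median was -0.81. All 5 probes of the list named duct epithelium were lower, by -1.19 to -0.95 for the 3 of EPCAM, the brightest. The 2 probes of CDH1 differed by -0.18 and -0.15. KRT8 and KRT18 of that list had no probe, and the cells that gave the EPCAM and CDH1 signals were not identified. All 6 present macrophage probes were higher (median 0.34, AIF1 the brightest). Both lists kept their direction with the background subtracted, with normexp and with scaling to the 75th percentile. The CDH1 probe with -0.15 was well above background on 0 arrays of the supplemented and 2 of the control diet. It was thus present only through the control diet, and the filter favoured its direction. The duct epithelium median of -0.95 was -0.50 without m_9597, whose list median was the lowest (-1.84), with -0.69 to -0.50 for EPCAM, and 4 of its 5 probes were lower without m_9528. Of the macrophage probes 5 of 6 were higher without m_9527 or without m_9598, and without m_9600 the median was 0.60.

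The remaining lists were mixed. The median difference was 0.01 for the Sertoli cell, -0.05 for the germ cell (0.03 with scaling to the 75th percentile), 0.28 for the 4 peritubular (0.12 without m_9528) and -0.05 for the 4 endothelial probes. The endothelial median was 0.08 without m_9600, with 3 of 4 probes higher, and -0.15 without m_9502. Its CDH5 probe A_72_P310398 (-0.09) was well above background on 1 array of the supplemented and 3 of the control diet, and was present only through the latter. Hepatocyte markers, listed because the liver makes most of the circulating IGF1, had 4 present probes with a median difference of -0.002, and TTR was not present. All 4 were higher without m_9598 (median 0.12) or without m_9527 (median 0.07). The 3 genes of red blood cells had no probe. The part of the cell types in the differences of the axis was not tested.

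The genes whose signal was most like that of a member over the 8 boars were sought among the 2917 other named present probes, by Pearson's r as a description. For GHR they included TDH (r = 0.93) and MFGE8 (r = 0.92). For IGF1 they were TAC3 (r = 0.92), DPY19L3 (r = 0.91) and GHSR (r = 0.90), the last being the ghrelin receptor. For IGF1R they were SLC15A1 (r = 0.95), BIN1 (r = 0.92) and PDLIM3 (r = 0.92), and for IGFBP3 they were MAVS (r = 0.95), AREG (r = 0.94) and CALCB (r = 0.92). The probe of GHSR was well above background on only 1 array of the supplemented and 2 of the control diet, with a log2 signal of 6.26 in m_9527 and 5.03 to 5.38 in the other boars. These r are the highest of a large search over few boars, whether they exceed what chance gives was not tested, and no relation is read from them.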

How the data were processed

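The authors deposited the scanner output of each array, with the intensity of every spot from Feature Extraction (10.5.1.1 per the file headers) and no normalization between arrays, and a table of their own normalized log2 values. Sperm RNA-Seq was not analysed here. Control spots were dropped, and gMedianSignal, the raw value of the study's methods, was quantile-normalized on the log2 scale with no background subtracted, which understates the change of dim probes. Spots of a probe were averaged. Present probes were fitted with limma 3.58.1 (lmFit, eBayes; R 4.3.3), two-sided and without a block. The code was tested on simulated data. The plots were made in Python 3.11.15 with matplotlib 3.10.9.

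Of 3239 probes with a RefSeq accession, 2628 matched the gene table of Sscrofa11.1, which was used for names and neighbours only. With the names of the study's list, 3064 probes had a name. The members and lists were chosen with earlier results of these data known. All probes of the members were named, and of each pathway list those with an unadjusted P-value under 0.05 and the largest positive and negative difference. Some genes that this rule or the search for like patterns took are not reported here. Gene lists covered hormones and ligands, receptors, carriers and proteases, growth hormone and IGF signalling, IGF messenger RNA binding and 9 cell types. Authors' fold changes and P-values in that list were not used.

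The alternatives were background-subtracted gProcessedSignal and plain gMedianSignal, each scaled to the 75th percentile, normexp with an offset of 50, no filter on dim probes or a strict one, array weights, the slide as a block, each slide alone, the authors' log2 table, and leaving out each boar. Their use for the pathway probes, and leaving out boars for the marker lists, were decided after seeing the data. All arrays were scanned on 1 day.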

Additional observations from a re-analysis of the deposited data

Results flagged for a closer look

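The IGFBP5 signal of the control boar m_9502 lay far from the other boars of its diet. It was 8.66 on the log2 scale, while the other 3 control boars lay between 7.34 and 7.45, and the gap made up 0.915 of the whole range of the group, above the 95% critical value of Dixon's test for 4 samples. Its spot was well above background and carried no outlier mark. The 4 supplemented boars lay between 7.82 and 8.38, below m_9502. Without this boar the difference between the diets was 0.63 in place of 0.32, with an adjusted P-value of 0.279 in limma. Of 14 groups tested in this way, 1 stood out, and chance alone gives about 0.7 at 1 in 20.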

How the results depend on the processing

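No member passed adjustment in limma under any of the 10 alternatives or with any boar left out. The count of members with an unadjusted P-value under 0.05 was 0, but 2 with array weights (IGFBP5 and IGFBP6), 1 on slide 1 alone (IGFBP5) and 0 to 1 with a boar left out (IGFBP6 without m_9597 or m_9600, IGFBP5 without m_9502). Array weights gave m_9502 the lowest weight (0.316) and a median difference of 0.32. IGFBP3 turned to -0.0337 with gProcessedSignal and -0.0203 with normexp. With a boar left out, GHR ranged from -0.14 to 0.43, IGF1R from -0.119 to 0.0159, IGFBP2 from -0.11 to 0.32 and IGFBP3 from -0.0590 to 0.215. IGF1 (0.06 to 0.23), IGFBP5 (0.12 to 0.63) and IGFBP6 (0.47 to 1.02) kept their direction throughout, not their size. The pathway count of 5 was 8 with gProcessedSignal, 13 with array weights, 3 with the strict filter, 6 on slide 1 alone, 1 on slide 2 alone and 3 to 8 with a boar left out. On slides 1 and 2 alone, SSTR2 was 0.0740 and -0.19, GHRL -0.82 and 0.72, and IGF2 1.70 and -0.52, and with a boar left out GHRL ranged from -0.34 to 0.24 and SSTR2 from -0.21 to 0.11. PRLR, IRS2 and SSTR2 had no value where a filter or the deposited table left them out. Of all present probes, 689 had an unadjusted P-value under 0.05, 5830 with array weights, 2381 on slide 1, 359 on slide 2 and 339 (without m_9528) to 6155 (without m_9502) with a boar left out. The cause was not tested. Signal over background limits IGF1R and IGFBP3.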
